A study of Mus musculus with 4 samples.

Results

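The genes described here form the Wee1-Cdk1 switch, which decides when a cell enters mitosis. They are 10 of the 23235 gene symbols in the expression tables, taken by their symbols: Wee1, Pkmyt1, Cdk1, Cdc25a, Cdc25b, Cdc25c, Ccnb1, Ccnb2, Chek1 and Chek2. The cells were HG165, an androgenetic haploid embryonic stem cell (haESC) line, whose genome comes from sperm alone, and which was derived from C57BL/6 mice. One group of 2 samples received the solvent DMSO, and the other group of 2 samples received RDF, a mixture of Repsox (an inhibitor of TGF-β signalling), DMH1 (an inhibitor of BMP signalling) and Forskolin (an activator of adenylyl cyclase). Both groups share this 1 line, and haESCs were mostly grown in a medium with serum and LIF. By the study's methods, haESCs were cultured on feeder cells, but these were left out of most assays. RNA sequencing is not among the exceptions listed. The doses, the length of treatment and the ploidy of the sequenced samples are not given in the sources used here. The study tested RDF for keeping haESCs haploid and set it beside an inhibitor of Wee1 kinase, so the question here is how transcripts of the switch differ with RDF.

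Cdk1 bound to a B-type cyclin drives entry into mitosis. Wee1 in the nucleus and Pkmyt1 at the membranes around it hold Cdk1 inactive by phosphorylating neighbouring residues of its ATP-binding site, and the Cdc25 phosphatases take these phosphates off. After DNA damage or stalled replication, Chek1 and Chek2 restrain the Cdc25 phosphatases, and Chek1 also favours Wee1, so that cells wait in G2. Embryonic stem cells cycle fast and rely on this G2 control because their G1 checkpoint is weak.

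The residues of Cdk1 that Wee1 and Pkmyt1 phosphorylate are shown first. The results below include the levels of the transcripts of the enzymes that write and remove these marks, not of the enzymes themselves. The residues are the threonine at codon 14 and the tyrosine at codon 15, and Wee1 acts on the tyrosine only. On NCBIM37 (mm9, the build used for the deposited files), these codons lie in a coding exon of Cdk1 at chr10:68808972-68808977 on the minus strand. The first 60 bases of the coding sequence, which span 2 exons, read as follows, with both codons in capitals.
Cdk1 codons 1 to 20: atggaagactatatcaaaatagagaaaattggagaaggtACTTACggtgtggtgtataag

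The expression values are FPKM, fragments scaled to transcript length and to the mapped fragments of the sample, so levels can be set side by side between genes. Between samples no further scaling was applied, and the effect of other scalings is given below. Estimated from the steps of the lowest values, the depth was between 9760000 and 12340000 fragments per sample, and each gene of the switch rested on between 208 and 6139 fragments in a sample. All 8 markers of embryonic stem cells were well expressed in each sample, but 6 of them differed between the groups: Sox2, Zfp42 and Klf4 rose, and Pou5f1, Tdgf1 and Dppa5a fell. Their summed level was 7598 and 7559 FPKM with DMSO and 4945 and 4481 FPKM with RDF, and most of it was Dppa5a. For 10 fibroblast markers the summed level was between 23.5 and 26.3 FPKM with DMSO and between 15.9 and 18.4 FPKM with RDF. In each sample 5 or 6 of these 10 were under 1 FPKM, and only Fap was at 0, in 1 sample of each group. Among the 5 fibroblast markers tested, Col1a1, Col1a2 and Postn fell and Dcn rose. The part of either marker list in the results below was not tested. RNA of a whole culture was measured, so a change in the share of cells in a phase of the cycle and a change of the RNA in each cell cannot be told apart.

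RDF-treated haESCs had more Wee1 transcript than DMSO-treated haESCs. Wee1, which lies on chr7:117265864-117285626 of NCBIM37 on the plus strand, stood at 24.8 and 22.7 FPKM with DMSO and at 37.9 and 37.0 FPKM with RDF. Both RDF samples lay above both DMSO samples, and the gap between the groups was much wider than that between replicates. The group mean rose to 37.4 ± 0.635 FPKM with RDF (SD, n = 2) from 23.8 ± 1.48 FPKM (n = 2), a ratio of 1.58. On the log2(FPKM + 1) scale, on which all fold changes here are given as RDF minus DMSO, the change was 0.64 (standard error 0.065, 95% interval 0.48 to 0.80, adjusted p = 0.00310 from limma). The adjustment ran over the 11733 genes averaging 1 FPKM or more, of which 21.6% had an adjusted p under 0.05 and 13.3% did so with a higher level in RDF. A larger log2 fold change than that of Wee1 was found for 334 of these genes, or 2.85%. Wee1 kept an adjusted p under 0.05 in each of the 12 other ways of processing the values that were tried, where its log2 fold change lay between 0.56 and 0.70.

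Pkmyt1, the other kinase of this family, did not rise with Wee1. It lies on chr17:23863303-23873696 on the plus strand and stood at 18.3 and 19.0 FPKM with DMSO and at 16.1 and 16.01 FPKM with RDF. Both RDF samples were lower than both DMSO samples. The log2 fold change of Pkmyt1 was -0.20 (standard error 0.062, 95% interval -0.35 to -0.05), with an unadjusted p of 0.0160 and an adjusted p of 0.0639 from limma, so the difference did not pass the threshold. With median-ratio scaling of the samples its adjusted p was 0.0428 and with quantile normalization it was 0.0425, and over all alternatives its adjusted p was between 0.0425 and 0.209. An exon of Pkmyt1 overlaps one of Paqr4 on the opposite strand, which was at 1.14 to 1.63 FPKM in the 4 samples. Myt1, a name also in use for the Pkmyt1 kinase, belongs in these tables to a zinc finger gene of the nervous system, and Myt1 was at 0.0168 FPKM in DMSO replicate 1 and listed at 0 in the other samples.

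**Figure D1:**
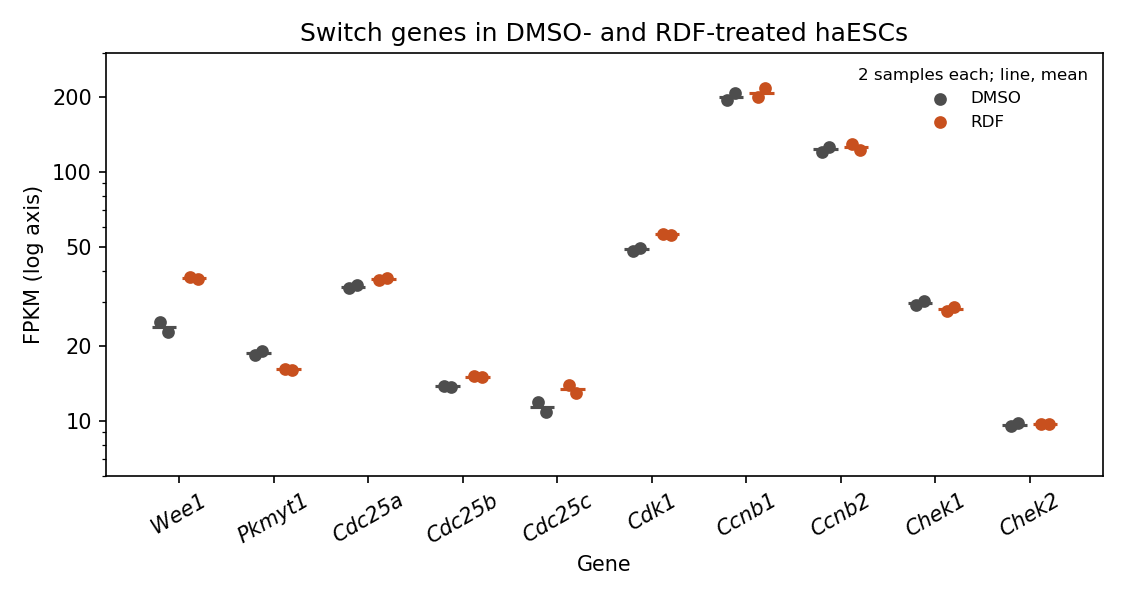
FPKM of the 10 switch genes on a log axis, with the 2 DMSO samples in grey, the 2 RDF samples in orange and a line at each mean. Wee1 is the gene with the widest gap between the groups, from a mean of 23.8 to a mean of 37.4 FPKM, and Ccnb1 and Ccnb2 stand highest in both.

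As Wee1 and Pkmyt1 both hold Cdk1 inactive, their levels were also set against each other within each sample, as a description without a test. Wee1 made up 57.5% and 54.5% of the summed FPKM of the pair in the DMSO samples and 70.2% and 69.8% in the RDF samples. The sum itself was 43.1 and 41.7 FPKM in DMSO and 53.99 and 52.99 FPKM in RDF. Thus the summed kinase transcripts were higher with RDF through Wee1, as Pkmyt1 was lower, and Wee1 held a larger share of them. Relative to Cdk1, their substrate, Wee1 moved from ratios of 0.517 and 0.458 to ratios of 0.671 and 0.666, whereas Pkmyt1 moved from 0.382 and 0.383 to 0.285 and 0.288.

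The 3 Cdc25 genes, which encode the phosphatases that oppose Wee1, each had higher values in both RDF samples than in both DMSO samples, as had 37.1% of all genes tested, but none passed the threshold. They lie on chr9:109778083-109796392 (Cdc25a, plus strand), chr2:131012685-131024233 (Cdc25b, plus strand) and chr18:34892651-34911187 (Cdc25c, minus strand). Cdc25a, which also acts at the start of S phase, had 33.97 and 35.1 FPKM in DMSO and 36.8 and 37.5 FPKM in RDF (log2 fold change 0.10, 95% interval -0.03 to 0.24, adjusted p = 0.229 from limma). Cdc25b, taken to start the activation of Cdk1 at the centrosome, had 13.8 and 13.7 FPKM in DMSO and 15.0 and 14.9 FPKM in RDF (log2 fold change 0.12, 95% interval -0.04 to 0.27, adjusted p = 0.228). Cdc25c had 11.9 and 10.8 FPKM in DMSO and 13.9 and 12.9 FPKM in RDF (log2 fold change 0.22, 95% interval 0.02 to 0.41, adjusted p = 0.1004). The differences of Cdc25a and Cdc25b were small but wider than those between their replicates. For Cdc25c the gap between the nearest samples of the groups was less than that between its replicates in either group. An exon of Cdc25b overlaps one of Spef1 on the opposite strand, which was under 1 FPKM in all samples.

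Together the 3 phosphatase genes summed to 59.7 and 59.6 FPKM in DMSO and to 65.7 and 65.3 FPKM in RDF. Cdc25a supplied most of this, between 56.0% and 58.9% in the 4 samples. Divided by the sum of Wee1 and Pkmyt1, the phosphatase transcripts came to 1.38 and 1.43 in DMSO and to 1.22 and 1.23 in RDF. Against Wee1 alone the ratio was 2.41 and 2.62 in DMSO and 1.74 and 1.76 in RDF. By transcript level, then, the balance of these enzymes lay further towards Wee1 in the RDF samples. Pkmyt1 was lower with RDF, without passing the threshold, so against Pkmyt1 alone the phosphatase transcripts were higher there. Neither the proteins nor the phosphorylation of Cdk1 are part of these data. The study also assayed Wee1 by Q-PCR, with HG165 among the lines, and by western blot in another line. It reported no change of Wee1 with RDF in either assay, unlike the rise in the FPKM described here. Those measurements were not used here, and the reason for the difference was not tested.

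**Figure D2:**
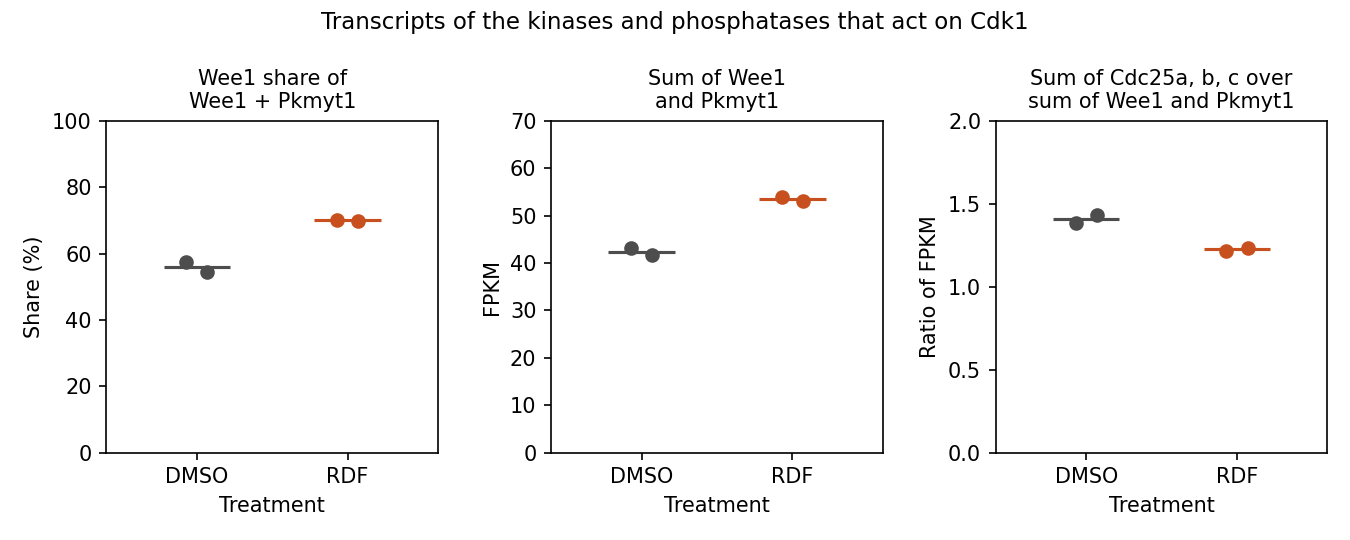
Each panel shows the 2 DMSO samples (grey) and the 2 RDF samples (orange) as points with a line at the mean: the share of Wee1 in the FPKM of Wee1 and Pkmyt1 (%), the sum of these 2 genes (FPKM), and the sum of Cdc25a, Cdc25b and Cdc25c over that sum. With RDF the share rises from a mean of 55.99% to 69.98%, and the ratio goes from a mean of 1.41 to 1.22.

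Cdk1 itself was slightly higher with RDF. Cdk1 lies on chr10:68799383-68815686 on the minus strand and stood at 48.0 and 49.5 FPKM with DMSO and at 56.4 and 55.5 FPKM with RDF. The groups did not overlap, as was the case for 65.5% of all genes tested. Its log2 fold change was 0.20 (standard error 0.053, 95% interval 0.07 to 0.32) with an adjusted p of 0.0475 from limma, just under the threshold. This call did not hold without a filter on low values (adjusted p = 0.0643), with median-ratio scaling (0.0771), without the mean-variance trend (0.101) or without any 1 of the 4 samples (0.0902 to 0.174). The direction was the same in all of these.

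The B-type cyclins were the most abundant transcripts of the switch, and no change in them was detected. Both lie on minus strands, Ccnb1 at chr13:101548605-101556525 and Ccnb2 at chr9:70255496-70269361. Ccnb1, which partners Cdk1 at mitotic entry, had 194 and 207 FPKM in DMSO and 200 and 216 FPKM in RDF (log2 fold change 0.05, 95% interval -0.11 to 0.21, adjusted p = 0.594 from limma). Ccnb2, the cyclin B found mostly at the Golgi, had 120 and 126 FPKM in DMSO and 129 and 122 FPKM in RDF (log2 fold change 0.03, 95% interval -0.11 to 0.17, adjusted p = 0.718). For both genes the groups overlapped, and the intervals leave room for a rise by a factor of up to 1.16 and 1.13, respectively. The sign of Ccnb2 turned with median-ratio scaling, to a log2 fold change of -0.0010. The summed cyclin B transcripts were 6.55 and 6.71 times those of Cdk1 in the DMSO samples and 5.83 and 6.09 times in the RDF samples.

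The checkpoint kinase genes Chek1 and Chek2, which lie upstream of the Cdc25 phosphatases, did not pass the threshold either. Chek1 lies at chr9:36516067-36534650 on the minus strand and Chek2 at chr5:111269036-111303152 on the plus strand. Chek1, the kinase that answers stalled replication, had 29.2 and 30.1 FPKM in DMSO and 27.5 and 28.5 FPKM in RDF, and both RDF samples were the lower ones. Its log2 fold change was -0.08 (95% interval -0.22 to 0.06, adjusted p = 0.358 from limma). Chek2, which answers double-strand breaks, had the lowest level of the 10 genes, with 9.47 and 9.74 FPKM in DMSO and 9.64 and 9.70 FPKM in RDF. Its values overlapped (log2 fold change 0.01, 95% interval -0.16 to 0.18, adjusted p = 0.939), and its sign turned under both other scalings, to -0.021 and -0.041.

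Over the 10 genes, 2 passed the threshold upwards (Wee1 and Cdk1) and 0 downwards by limma, where the unadjusted p was under 0.05 for 4 (Wee1, Cdk1, Cdc25c and Pkmyt1, the last of these lower in RDF). The share of 2 in 10 is near the 21.6% called among all genes tested, of which 13.3% were higher and 8.28% lower in RDF. The groups did not overlap for 7 of the 10, with 5 genes higher and 2 lower in RDF, beside 65.5% of all genes tested (37.1% higher and 28.5% lower). The median log2 fold change of the 10 genes was 0.08, against 0.03 for all genes tested. None changed more than 2-fold by the ratio of the group means, a size that 1.37% of the genes tested reached upwards and 1.55% downwards. The order of levels was Ccnb1, Ccnb2, Cdk1, Cdc25a, Chek1, Wee1, Pkmyt1, Cdc25b, Cdc25c and Chek2 in DMSO, where the samples of neighbours in this order did not overlap. In RDF, Wee1 moved up past Chek1 to the level of Cdc25a, with means of 37.4 and 37.1 FPKM and samples that overlapped, while the other genes stayed in the same order.

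**Figure D3:**
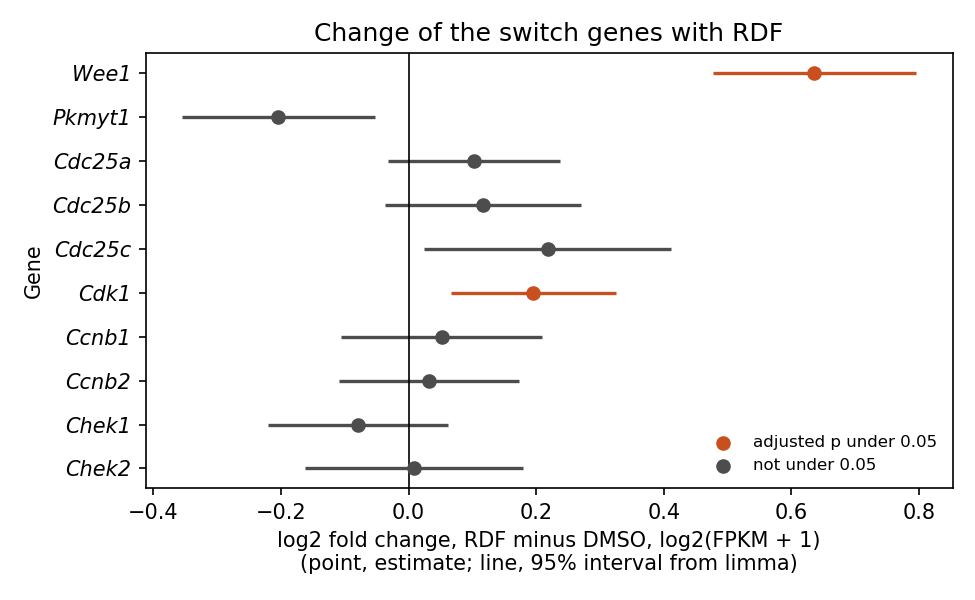
Log2 fold change of each switch gene, RDF minus DMSO on the log2(FPKM + 1) scale, with its 95% interval from limma, in orange where the adjusted p was under 0.05 and in grey elsewhere. Wee1 at 0.64 stands apart from the other 9 genes, which lie between -0.20 and 0.22.

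**Figure D4:**
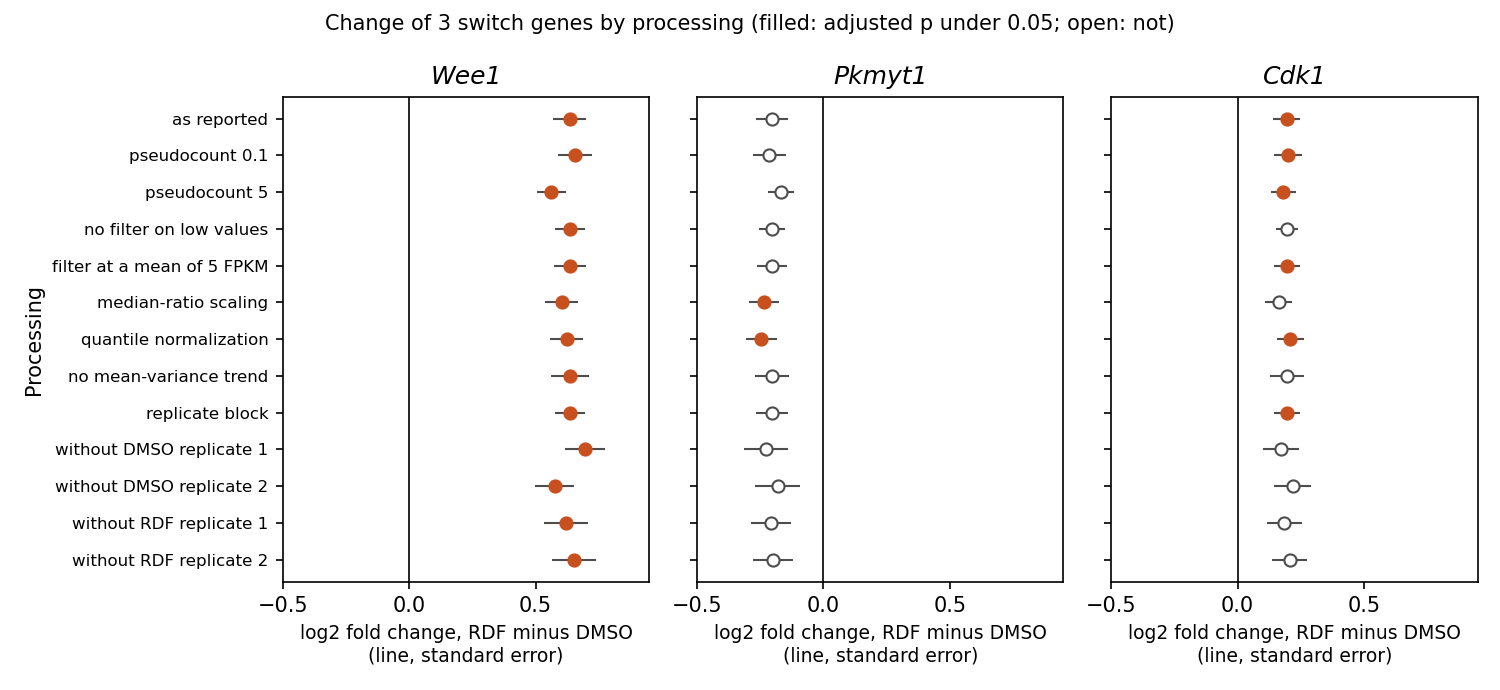
Log2 fold change of Wee1, Pkmyt1 and Cdk1 (x axis, RDF minus DMSO, with its standard error) as reported and under 12 other ways of processing (rows), filled where the adjusted p was under 0.05. Wee1 is filled in every row, Pkmyt1 in 2 and Cdk1 in 6.

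The upstream sequences of Cdk1 and its B-type cyclins are shown for their motifs. Genes of this kind share motifs that are bound when they are expressed in G2 and mitosis. Cdk1 was called here and the cyclins were not, but their changes were not compared with each other. The limma intervals of the log2 fold changes overlapped (Cdk1 0.07 to 0.32, Ccnb1 -0.11 to 0.21, Ccnb2 -0.11 to 0.17). The call of Cdk1 was also lost in several alternatives, so no difference between these genes is set against the motifs. The sequences are those of RefSeq on the build GRCm38.p6, which is not the build of the expression files, and cover the 250 bases before the annotated start. Of the 10 genes, 7 were matched there, and Wee1, Pkmyt1 and Cdc25c were not. Capitals mark the CCAAT box, bound by NF-Y, and the letters TTTGAA of the cell cycle genes homology region, both searched on both strands.
Cdk1, chr10:69352913-69353162, minus strand: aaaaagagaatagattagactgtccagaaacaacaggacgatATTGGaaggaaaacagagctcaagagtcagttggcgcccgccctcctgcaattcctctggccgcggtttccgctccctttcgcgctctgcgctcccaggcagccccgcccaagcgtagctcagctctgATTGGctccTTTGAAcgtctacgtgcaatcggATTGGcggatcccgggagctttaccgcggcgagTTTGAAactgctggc
Ccnb1, chr13:100786487-100786736, minus strand: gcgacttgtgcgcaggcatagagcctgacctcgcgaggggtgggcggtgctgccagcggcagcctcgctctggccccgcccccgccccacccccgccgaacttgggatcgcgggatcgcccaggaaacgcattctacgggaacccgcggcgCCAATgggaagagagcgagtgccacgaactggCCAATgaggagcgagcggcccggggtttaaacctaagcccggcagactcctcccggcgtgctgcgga
Ccnb2, chr9:70421555-70421804, minus strand: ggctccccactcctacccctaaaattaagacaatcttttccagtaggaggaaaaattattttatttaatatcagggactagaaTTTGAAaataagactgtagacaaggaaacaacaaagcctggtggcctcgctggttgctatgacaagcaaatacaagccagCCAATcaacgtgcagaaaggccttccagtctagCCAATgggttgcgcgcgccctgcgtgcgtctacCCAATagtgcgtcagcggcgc

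Cdk1 held 3 CCAAT boxes and 2 copies of TTTGAA, Ccnb1 held 2 and 0, and Ccnb2 held 3 and 1. Of the 7 genes matched, 6 had a CCAAT box (all but Chek1), against 33.8% of 32851 promoters of the same length, and 2 had TTTGAA, against 5252 of the 32851. The E-box CACGTG, the site of the clock proteins, was in 0 of the 7 and in 6.02% of all promoters, and the cAMP response element TGACGTCA was in 0 of the 7 and in 1.55%. As these shares are low, 0 of 7 does not set the switch genes apart, and Wee1 was not among the 7. These are matches of letters only, and binding was not measured. A marked TTTGAA need not be a working site, and that of Ccnb2 lay 167 bases before the start, further out than all its CCAAT boxes. Variants of the letters and the bases after the start were not searched, so a count of 0 does not show that a motif is absent.

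Beyond the 10 genes, 11 lists of genes that feed the switch or act beside it held 80 genes, of which 73 averaged 1 FPKM or more. Of these 73 genes, 10 rose and 9 fell at an adjusted p under 0.05 by limma, or 26.03%, against 21.6% of all genes tested. Both counts depended on the samples, as 2 genes rose and 2 fell without RDF replicate 1, and likewise without RDF replicate 2. Without DMSO replicate 1 there were 7 and 4, and without DMSO replicate 2 there were 5 and 6. The calls of Gadd45g, Sfn, Lin52 and Cry1 held in each of the 12 alternatives, and these were the only ones left in the lists without either RDF replicate. The counts of single lists below are to be read against the 13.3% of all genes tested that were higher and the 8.28% that were lower.

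Trp53 and inhibitors of Cdk1 formed the list with the most falls, with 4 of 6 genes lower, against 8.28% of all genes tested. None was higher, and the median log2 fold change was -0.34. Without either RDF replicate only 2 of them, Sfn and Gadd45g, were called. Sfn, a 14-3-3 protein that keeps Cdk1 and cyclin B in the cytoplasm, had 17.8 and 18.03 FPKM in DMSO and 8.45 and 8.12 FPKM in RDF (log2 fold change -1.03, adjusted p = 0.000947 from limma). Gadd45g, a stress protein that can inhibit Cdk1 bound to cyclin B, had 73.5 and 88.4 FPKM in DMSO and 29.0 and 31.8 FPKM in RDF (log2 fold change -1.38, adjusted p = 0.00119). Gadd45b fell by 0.35 (log2, adjusted p = 0.00921) and Gadd45a by 0.32 (adjusted p = 0.0211). Trp53 and Cdkn1a, the gene of the inhibitor p21, were not called, with log2 fold changes of 0.03 each. Thus several transcripts of Cdk1 inhibitors were lower in the samples in which Wee1 was higher. Sfn, Gadd45g and Gadd45a were among the genes that the study had singled out in these samples, so their direction is not independent evidence.

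The Cdk-activating kinase phosphorylates Cdk1 on its activation loop. Of the 5 genes listed for this kinase and the Cks subunits, 2 fell (40%) and 0 rose, where 8.28% of all genes tested fell. Both that fell belong to the kinase. Ccnh, its cyclin, had 28.8 and 28.6 FPKM in DMSO and 22.7 and 23.7 FPKM in RDF (log2 fold change -0.30, adjusted p = 0.0187 from limma). Mnat1, its assembly factor, had 35.7 and 34.03 FPKM in DMSO and 28.6 and 26.5 FPKM in RDF (log2 fold change -0.33, adjusted p = 0.0188). The catalytic subunit Cdk7 was at 0.10 (adjusted p = 0.415), and Cks1b and Cks2, small subunits that bind Cdk1, were at -0.14 and 0.16 without passing the threshold.

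Among 13 sensors and adaptors upstream of Chek1 and Chek2, 2 genes rose and 1 fell, a share of 23.1% that is near the 21.6% of all genes tested. Etaa1 and Topbp1, which activate the kinase Atr, changed by 0.47 and 0.27 on the log2 scale (adjusted p = 0.00960 and 0.0268 from limma), and Rad1, a part of the ring-shaped clamp that recruits Topbp1, changed by -0.28 (adjusted p = 0.0271). Of 10 genes of the SCF ligase and 14-3-3 proteins that turn over or hold Wee1 and Cdc25, 2 rose and 0 fell, again near the background. These were Fbxw11, an F-box protein that marks Wee1 and Cdc25a for degradation, with a log2 fold change of 0.28 (adjusted p = 0.0271), and Skp1a, a core subunit of the ligase, with 0.22 (adjusted p = 0.0451). Of 5 regulators of the ligase APC/C, 1 rose, namely Fzr1, which targets B-type cyclins after mitosis (log2 fold change 0.31, adjusted p = 0.0174).

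Transcription factors of G2/M genes moved in both directions, with 2 of 10 higher and 2 lower, against 13.3% and 8.28% of all genes tested. Lin52, a subunit of the MuvB complex that binds these promoters, had 7.11 and 5.91 FPKM in DMSO and 13.8 and 13.3 FPKM in RDF (log2 fold change 0.95, adjusted p = 0.00301 from limma). Lin37, another MuvB subunit, changed by -0.35 (adjusted p = 0.0186), Mybl2, which joins MuvB at G2/M genes, by -0.23 (adjusted p = 0.0283), and Nfyb, a subunit of the factor that binds CCAAT, by 0.25 (adjusted p = 0.0281). Foxm1, which activates Ccnb1 and Cdc25b, was at 0.11 (adjusted p = 0.363). Of 5 phosphatase genes of mitotic exit, Cdc14a alone was called, with 0.778 and 0.812 FPKM in DMSO and 1.77 and 1.84 FPKM in RDF (log2 fold change 0.65, adjusted p = 0.0121). At this low level the log2 fold change of Cdc14a depended on the pseudocount, with 1.09 at a pseudocount of 0.1 and 0.23 at 5, and Cdc14a was also among the genes singled out by the study. None of the 4 Polo and Aurora kinase genes (Plk1, Aurka, Aurkb and Bora, with 1 unadjusted p under 0.05) or of the 8 genes of the Greatwall branch (0 unadjusted p under 0.05) was called by limma.

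Clock genes were included because the clock drives Wee1 transcription in other tissues such as liver. The study assayed regulators upstream of Wee1 by Q-PCR, HG165 included, and reported that RDF did not alter them. Its primers include Cry1, Cry2 and Arntl (as Bmal1), and those measurements were not used here. Of 8 genes 5 were tested, and 2 of these rose, against 13.3% of all genes tested, and 0 fell. Cry1, a repressor of the clock, had 14.5 and 15.8 FPKM in DMSO and 25.2 and 24.96 FPKM in RDF (log2 fold change 0.69, adjusted p = 0.00279 from limma). Clock, the partner of Arntl on the E-box, had 1.09 and 1.48 FPKM in DMSO and 2.33 and 2.85 FPKM in RDF (log2 fold change 0.66, adjusted p = 0.0224), where the log2 fold change of Clock was 0.97 with a pseudocount of 0.1 and 0.27 with 5. Arntl was at 0.27 (adjusted p = 0.0536 from limma), and Npas2, Per2 and Per3 were under the filter and so not tested. The mean of Per2 was 0.284 FPKM in DMSO and 1.20 FPKM in RDF. For Npas2 the means were 0.175 and 0.325 FPKM, and for Per3 they were 0.479 and 0.495 FPKM. Among the kin of the switch genes, Ccna2 (log2 fold change -0.14, adjusted p = 0.0999) and Cdk2 (-0.01, adjusted p = 0.932) were not called, and Wee2, Ccnb3, Ccna1 and Myt1 were under the filter.

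**Figure D5:**
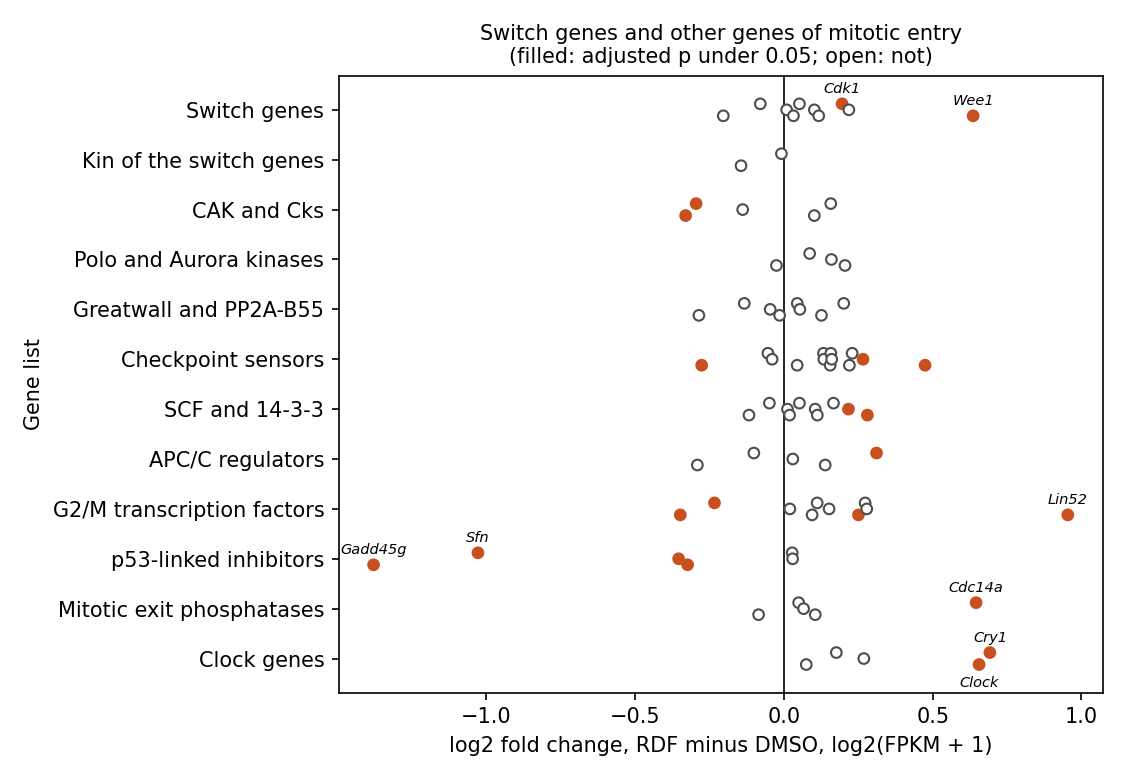
Log2 fold change, RDF minus DMSO on the log2(FPKM + 1) scale, of each tested gene in the switch and in 11 lists of other genes of mitotic entry (rows), filled where the adjusted p was under 0.05. Most genes lie within 0.5 of 0, and those named in the plot reach from -1.38 for Gadd45g to 0.95 for Lin52.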

How the data were processed

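Total RNA of DMSO- and RDF-treated haESCs (150 ng per sample) was made into stranded mRNA libraries for Illumina sequencing. For read mapping the authors used TopHat2 2.0.14 and Bowtie2 2.1.0 and they deposited FPKM computed with Cufflinks 2.2.1 on the mm9 annotation, with tools and versions per the labels. Strand settings of the counting, filters and treatment of reads shared by several genes are not given in the sources used here. Nothing states that the samples of a group came from separate cultures, so p-values measure the spread between these samples, which may be technical.

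FPKM of the 4 samples were joined by symbol. The 11733 genes averaging 1 FPKM or more were compared on log2(FPKM + 1) with limma 3.58.1 in R 4.3.3 (lmFit, eBayes with a mean-variance trend, two-sided, Benjamini-Hochberg over these genes, threshold 0.05). An exact permutation test of 2 samples against 2 was not used, as it cannot reach that threshold. The fit was tested on simulated data. Depth was estimated from symbols with 1 annotated transcript of at least 1500 nucleotides, in which the product of FPKM and length steps by whole fragments. For each sample the depth that brought the low values closest to whole was taken. At that depth 41.8% to 48.3% of them were no more than 0.1 from whole. An even spread would give 20% at a depth fixed beforehand, but the search itself raises the share, so this does not check the depth. Fragments behind single genes are approximate, for Wee1 from its coding length. By this estimate, counting error alone was at most 6.94% for a gene of the switch. Positions are from GENCODE M1 on NCBIM37.

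All 10 switch genes were named, and from each further list the called genes with the 3 smallest adjusted p; Mybl2, Gadd45a and some genes not called (Trp53, Cdkn1a, Cdk7, Cks1b, Cks2, Foxm1, Arntl, Ccna2) were chosen after their values were seen. Bora was matched by its older symbol. The members and lists were chosen with earlier results of these data known. Alternatives were other pseudocounts (0.1 and 5), no filter or a filter at 5 FPKM, median-ratio scaling, quantile normalization, no trend, a replicate block, each sample left out, and a 2-fold rule.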

Additional observations from a re-analysis of the deposited data

How the results depend on the processing

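The rise of Wee1 was called in all 12 alternatives with a test, with an adjusted p from limma between 0.00300 and 0.0431. Among all genes, 942 were higher and 606 lower without a filter on low values, and 161 and 182 by a 2-fold ratio of group means without a test, by which 0 switch genes were higher. Of the switch genes, 1 (Wee1) was higher without the filter, with median-ratio scaling and without the trend, and 1 (Pkmyt1) was lower with median-ratio scaling and with quantile normalization. Leaving out 1 sample at a time, with the lone sample assumed to vary like the other group, gave 253 to 1121 genes higher, 195 to 731 lower, 1 to 1 switch genes higher, and 2 to 7 higher and 2 to 6 lower in the further lists, the fewest without RDF replicate 2 among all genes. The sign turned for Ccnb2 with median-ratio scaling (-0.0010), for Chek2 with median-ratio scaling (-0.021) and quantile normalization (-0.041), and between samples left out for Ccnb1 (-0.0037 to 0.11), Ccnb2 (-0.0091 to 0.073), Chek2 (-0.0087 to 0.027) and Cdk2 (-0.057 to 0.040). The cause was not tested. With the replicate number as a block, 1651 genes were higher and 1066 lower, and Wee1 and Cdk1 were still the 2 switch genes called. Deviations of same-numbered samples from their group means correlated with a Pearson r of 0.134 across genes, and with only 2 pairs and no label tying the numbers to a batch, the samples were taken to share only a number. The depth limits changes of the low genes most, and Myt1 was not detectable beyond a single low value.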
